A study of Homo sapiens with 47 samples.

Results

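The 10 genes described here are the type I keratins KRT18, KRT19 and KRT34, the type II keratins KRT5, KRT7, KRT8, KRT80 and KRT81, and the keratin-associated proteins KRTAP2-3 and KRTAP2-4. They were taken by symbol, 10 of the 62703 genes in the RNA tables, with the chromatin marks measured over the keratin clusters on chromosomes 12 and 17. The symbols were chosen by their measured RNA levels and RNA differences between these lines. Their RNA levels and differences are therefore given as descriptions, with no p-value, and nothing is read from the count of members past a threshold. Tests are given for the chromatin marks and for genes of the keratin family and its partners outside the 10. The lists of those genes were also chosen with earlier results of these data known, so their p-values and counts may depend on that choice.

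All samples are PC3, an established human prostate cancer cell line, transduced with a construct for DDC, a construct for SLC6A4 or the empty vector, which served as the control. DDC makes serotonin and dopamine from their amino acid precursors by decarboxylation, and SLC6A4 takes serotonin up into cells. RNA was sequenced in 3 libraries of each line after selection of polyadenylated RNA. ChIP of trimethylated lysine 4 of histone H3 (H3K4me3) and of the same tail with serotonin on the neighbouring glutamine (H3K4me3Q5ser) was done in 3 libraries of each line, and input values were used for the empty-vector and DDC lines. CUT&Tag of H3K4me3 gave values for 1 control library, 1 SLC6A4 library and 1 library of SLC6A4 cells with a short hairpin against TGM2, a transglutaminase able to attach serotonin to histones. The sources used here do not name the promoter of the constructs, nor say whether each line is a clone. Nothing says that libraries of a group came from separate cultures, so p-values measure the spread between these libraries, which may be technical.

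Keratins are the intermediate filament proteins of epithelial cells, and every keratin filament pairs a type I chain with a type II chain. KRT8 and KRT18 are the typical pair of simple epithelia such as the luminal layer of the prostate, KRT7 and KRT19 join them in many glandular epithelia, and KRT5 marks basal cells. KRT34 and KRT81 are hair keratins, and the keratin-associated proteins are small cysteine-rich proteins that cross-link hair keratin filaments.

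RNA libraries held 17.3 M to 21.7 M reads in genes. H3K4me3Q5ser libraries held 13.5 M to 24.8 M read pairs in the 19535 listed regions (median length 4023 bp), H3K4me3 libraries 3.43 M to 5.81 M and input libraries 1.39 M to 1.83 M. DDC itself was at 24.1, 27.7 and 31.1 normalised reads in the DDC line and at 2.81 or below in the other libraries, and SLC6A4 was at 88.2, 110 and 131 in its line and at 1.11 or below elsewhere. KLK3, the prostate-specific antigen gene, was at 0 in all 9 libraries. The epithelial adhesion gene EPCAM fell in both lines relative to the empty vector (limma adjusted p = 2.27e-07 with DDC, 0.0316 with SLC6A4), and CDH1 fell with SLC6A4 (limma adjusted p = 0.001). CDH1 was at 53.3 ± 13.4 normalised reads in the empty-vector line and 3.79 ± 1.98 with DDC (SD, n = 3), a description only, since there it passed the filter on low values through the empty-vector libraries alone. The 8 markers of fibroblasts, endothelium and blood cells summed to 393 to 419 normalised reads in the empty-vector libraries, 238 to 261 with DDC and 164 to 208 with SLC6A4. Most of that came from PECAM1 and CD68, and the T-cell marker CD3E was at 0 throughout. The part of these markers in the keratin differences was not tested.

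The hair-type genes KRTAP2-3, KRTAP2-4 and KRT34 had the largest ratios between lines among the 9 members past the filter on low values, and all of them lie on the minus strand of chromosome 17 in GRCh38. KRTAP2-3 spans chr17:41059240-41060114, KRTAP2-4 spans chr17:41065116-41065879 and KRT34 spans chr17:41377669-41382306. Their 100 bases upstream of the annotated start are shown because these members moved in the same direction in both lines. The sequences come from RefSeq on GRCh38.p14, read 5′ to 3′ on the minus strand, with the motif TATAAA in capitals. They cover chr17:41060115-41060214, chr17:41065880-41065979 and chr17:41382307-41382406, in the order printed.
KRTAP2-3: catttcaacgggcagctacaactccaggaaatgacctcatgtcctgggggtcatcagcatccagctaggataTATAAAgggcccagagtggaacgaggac
KRTAP2-4: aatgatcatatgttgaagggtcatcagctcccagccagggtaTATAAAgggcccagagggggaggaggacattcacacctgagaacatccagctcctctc
KRT34: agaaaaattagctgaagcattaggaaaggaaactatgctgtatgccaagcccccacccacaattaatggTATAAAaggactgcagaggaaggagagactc

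Promoter sequence was at hand for 5 of the 10 members (KRT5, KRT8, KRT34, KRTAP2-3 and KRTAP2-4). TATAAA was searched on both strands of windows from 250 bases before to 50 bases after each start. It began at -28 in KRTAP2-3, -58 in KRTAP2-4 and -31 in KRT34, counted from the start with -1 as the base just before it, and these letters were not found in the KRT5 and KRT8 windows. Of all 35116 promoters, 11.5% held it. Lined up on the motif, the printed stretches of KRTAP2-3 and KRTAP2-4 were identical at 47 of the 70 bases compared (67.1%) and shared the run taTATAAAgggcccagag of 18 bases. The KRT34 stretch was identical to that of KRTAP2-3 at 33 of 97 bases (34.0%) and to that of KRTAP2-4 at 26 of 73 (35.6%). TGANTCA, with N for any base, was searched on both strands and lay in none of the 5 windows, against 7.71% of all promoters, and CCAAT lay only in that of KRTAP2-4 (34.6% of all promoters). A match is a description of letters and not a binding site.

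KRTAP2-3 was measured at 159, 124 and 113 normalised reads in the empty-vector libraries, at 219, 259 and 261 with DDC and at 615, 624 and 503 with SLC6A4. The 3 lines did not overlap, with the SLC6A4 libraries highest. The difference from the empty vector on the log2(value + 1) scale was 0.91 (SE 0.13) with DDC and 2.14 (SE 0.12) with SLC6A4. In these bulk samples, more cells with a transcript and more of it per cell cannot be told apart, and the same holds for every RNA value below.

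KRTAP2-4, the neighbouring copy, was at 20.8, 18.7 and 16.6 normalised reads in the empty-vector libraries, 33.5, 47.7 and 45.1 with DDC and 106, 98.9 and 88.4 with SLC6A4. It followed the same order of lines as KRTAP2-3, again with no overlap. Its log2 differences from the empty vector were 1.13 (SE 0.24) and 2.33 (SE 0.18). KRTAP2-3 and KRTAP2-4 share long stretches of sequence. Of the 50-base windows of the KRTAP2-4 transcript 52.6% occur in another keratin-family gene and 45.6% in KRTAP2-3 itself, and of those of KRTAP2-3 39.5% occur in KRTAP2-4. How the deposited counts divided such reads is not stated, so the level of each copy is uncertain.

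KRT34, a type I hair keratin, was at 8.30, 14.3 and 13.9 normalised reads in the empty-vector libraries, 31.4, 17.8 and 27.1 with DDC and 71.3, 84.2 and 74.4 with SLC6A4. These are 8 to 92 reads per library, so the level in the empty-vector line rests on few reads. The lines did not overlap. The log2 differences from the empty vector were 1.00 (SE 0.31) with DDC and 2.59 (SE 0.23) with SLC6A4. Across the 9 libraries the log2 levels of KRT34, KRTAP2-3 and KRTAP2-4 were correlated with Pearson's r of 0.94 to 0.99, a description over libraries that share their 3 lines. The non-member genes closest to KRT34 by the same measure, among 4951 compared, were C12orf75 (r = 0.993), MRPL9 (0.991), POLR3K (0.984), ACAT2 (0.982) and SLC25A5-AS1 (0.982).

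**Figure D1:**
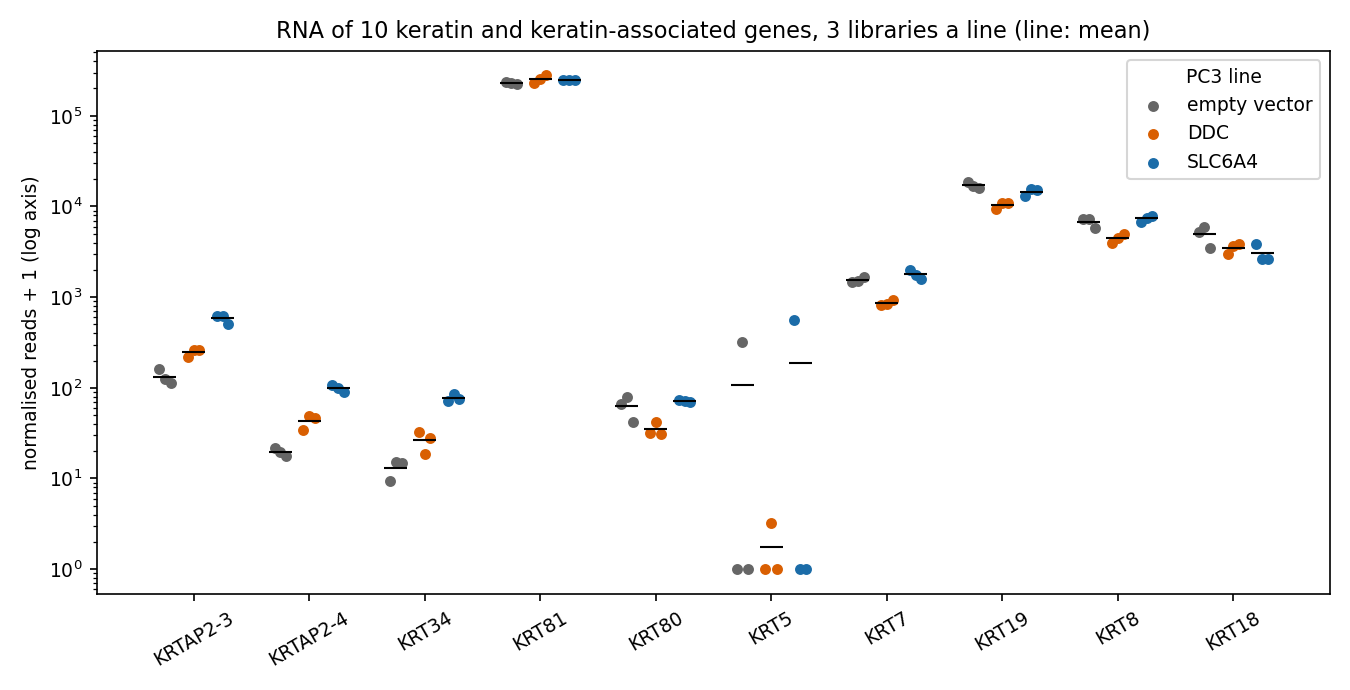
Normalised reads of each member in each of the 9 RNA libraries (log axis, value + 1), with empty-vector, DDC and SLC6A4 libraries side by side and a bar at the group mean. KRTAP2-3, KRTAP2-4 and KRT34 step up from the empty vector to DDC to SLC6A4, KRT7, KRT8 and KRT19 are lowest in DDC, and KRT5 is above 100 in only 2 of the 9 libraries.

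KRT81, a type II hair keratin of the cortex (chr12:52285913-52291534, minus strand), was by far the most abundant member. It held 1.20% of all reads in genes in the empty-vector line, 1.23% with DDC and 1.26% with SLC6A4. Per kilobase of exon it ranked 15 of 62625 genes in the empty-vector line. The libraries were at 234635, 228580 and 222100 normalised reads in the empty-vector line, 227682, 255415 and 278559 with DDC and 245955, 245453 and 247225 with SLC6A4. The DDC libraries overlapped the empty vector and the SLC6A4 libraries lay just above it. The log2 differences were small, at 0.15 (SE 0.12) and 0.11 (SE 0.05), and scaling by library size alone brought the first to 0.03. Of its 50-base windows 38.4% occur in KRT86, the adjacent hair keratin, so reads of the pair may be divided unequally.

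KRT80, a type II keratin of several epithelia (chr12:52168996-52192014, minus strand), was at 65.4, 78.0 and 41.0 normalised reads in the empty-vector libraries, 30.4, 41.1 and 30.1 with DDC and 73.2, 70.5 and 69.3 with SLC6A4. The lowest empty-vector library reached into the DDC range, while DDC and SLC6A4 did not overlap. The log2 differences were -0.80 (SE 0.22) for DDC and 0.25 (SE 0.19) for SLC6A4 against the empty vector, and -1.06 for DDC against SLC6A4. Without the third empty-vector library the SLC6A4 difference was -0.01.

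KRT5, the type II keratin of basal cells (chr12:52514575-52520530, minus strand), was not expressed evenly in any line. It was at 319 normalised reads in the second empty-vector library, 556 in the first SLC6A4 library and 2.22 in the second DDC library, and the other 6 libraries were at 0. Libraries of the same line thus differed from no reads to as many as 593, and no difference between lines was computed for it because it did not pass the filter on low values. KRT75 and KRT82, other type II keratins, had the same kind of single high library. KRT75 was at 905 normalised reads in the third SLC6A4 library and at 46.9 and 51.3 in the others of that line, and KRT82 was at 106 in the second SLC6A4 library and 0 in the other 8 libraries.

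KRT7, a type II keratin of ductal and glandular epithelia (chr12:52232520-52252186, plus strand), had 1473, 1517 and 1684 normalised reads in the empty-vector libraries, 815, 848 and 928 with DDC and 2002, 1750 and 1590 with SLC6A4. DDC libraries lay below all the others, and the SLC6A4 libraries overlapped the empty vector. The log2 difference was -0.85 (SE 0.08) with DDC, 0.19 (SE 0.08) with SLC6A4 and -1.04 for DDC against SLC6A4. Its exons overlap KRT7-AS on the opposite strand over 282 bp, and the strand setting of the RNA counting is not stated. Over the 9 libraries the genes closest to KRT7 among 4950 were ARHGDIB (r = 0.989), MRPS17 (0.981), RPL4 (0.981), RPL23AP82 (0.979) and EMC4 (0.976).

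KRT19, the type I keratin with the shortest tail (chr17:41523617-41528308, minus strand), was the second most abundant member per kilobase. It had 18491, 16990 and 16133 normalised reads in the empty-vector libraries, 9300, 11003 and 11005 with DDC and 13006, 15510 and 15260 with SLC6A4. None of the lines overlapped, with DDC lowest and SLC6A4 between. The log2 difference from the empty vector was -0.72 (SE 0.09) with DDC and -0.24 (SE 0.07) with SLC6A4.

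KRT8, the type II chain of the simple-epithelial pair (chr12:52897187-52949954, minus strand), had 7290, 7239 and 5735 normalised reads in the empty-vector libraries, 3954, 4496 and 5007 with DDC and 6724, 7531 and 7928 with SLC6A4. The DDC libraries lay below all others. Its log2 differences from the empty vector were -0.58 (SE 0.10) and 0.14 (SE 0.08).

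KRT18, its type I partner (chr12:52948871-52952906, plus strand), had 5254, 6006 and 3522 normalised reads in the empty-vector libraries, 3009, 3674 and 3832 with DDC and 3896, 2605 and 2611 with SLC6A4. Every pair of lines overlapped. The log2 differences from the empty vector were -0.46 (SE 0.13) with DDC and -0.69 (SE 0.15) with SLC6A4. The KRT8 libraries of the SLC6A4 line overlapped the empty vector as well. The log2 levels of the partners were correlated over the 9 libraries with r = 0.22. KRT8 and KRT18 share 525 bp of exon on opposite strands, and 39.0% of the KRT8 windows and 35.3% of the KRT18 windows occur in another keratin-family gene, most often the pseudogenes KRT8P3 and KRT18P11.

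Ordered by normalised reads per kilobase of exon in the empty-vector line, the members ran from KRT81 (118423) through KRT19 (7365), KRT18 (1606), KRT8 (982), KRT7 (390) and KRTAP2-3 (151) to KRT5 (25.7), KRTAP2-4 (24.4), KRT80 (14.1) and KRT34 (7.45). Among neighbours in that order the libraries overlapped only for KRT5 and KRTAP2-4. With DDC, KRTAP2-3 (281) stood above KRT7 (216), and KRT34 (15.5) above KRT80 (7.76), with no overlapping neighbours. With SLC6A4, KRTAP2-3 (663) was again above KRT7 (445), and the overlapping neighbours were KRT8 and KRT18, KRT34 and KRT5, and KRT5 and KRT80. Exon length joins all annotated exons of a gene, at 3999 bp for KRT7, 6881 bp for KRT8 and 3069 bp for KRT18. Their canonical transcripts (the reference transcript of a gene) are 1625, 1784 and 1413 bp long, while KRTAP2-3 has 875 bp by both lengths. KRTAP2-3 above KRT7 and KRT18 above KRT8 thus depend on the length used. An order by transcript length was not computed.

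Of the 10 members, 9 passed the filter on low values and KRT5 did not. With DDC 8 of the 9 passed the threshold of an adjusted p of 0.05 in limma (3 higher, 5 lower), beside 17.4% of all genes tested (8.94% higher, 8.41% lower). With SLC6A4 5 passed (3 higher, 2 lower), beside 19.4% (10.2% higher, 9.28% lower), and between DDC and SLC6A4 7 passed, all lower in DDC, beside 13.1% (6.41% higher, 6.67% lower). The libraries of the lines compared did not overlap for 6, 5 and 7 members, beside 33.3%, 34.9% and 28.6% of genes. The median log2 difference of the 9 was -0.46, 0.19 and -1.04 in the 3 comparisons, against 0.01, 0.01 and 0.00 over all genes tested. These contrasts chose the members, so nothing is read from the counts, and the comparisons with the empty vector share its 3 libraries. Scaling by library size alone moved the median of all genes with DDC to -0.12 and the share of called genes that were higher from 51.5% to 24.8%. With SLC6A4 that share went from 52.3% to 43.1%, and for DDC against SLC6A4 from 49.0% to 28.7%. No member difference past the threshold changed sign under it.

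**Figure D2:**
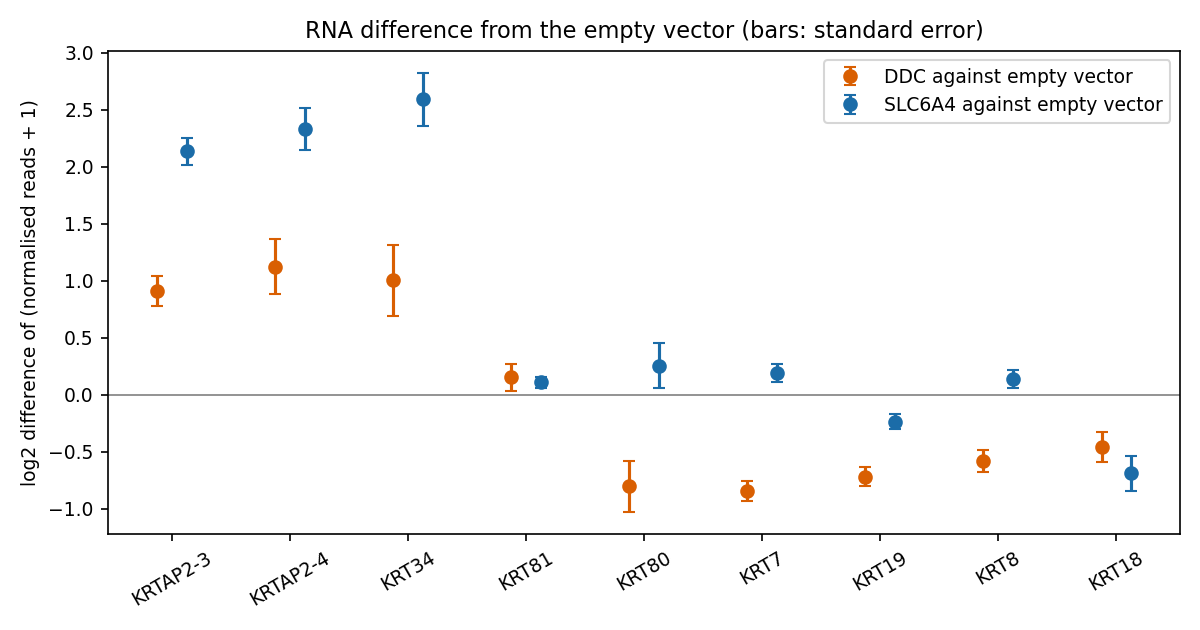
Log2 difference in RNA of the 9 members that passed the filter, for DDC and for SLC6A4 against the empty vector, with bars of 1 standard error from limma. KRTAP2-3, KRTAP2-4 and KRT34 lie above 0 in both comparisons with the empty vector, and KRT7, KRT8, KRT18, KRT19 and KRT80 lie below 0 with DDC.

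Of 26 other type I keratins, 3 passed the filter with DDC and none was called (limma adjusted p, with 1 at an unadjusted p under 0.05 and 0 called by edgeR and DESeq2). Of the 4 past the filter with SLC6A4, KRT15, a basal-type keratin, fell by 0.48 (SE 0.15, limma adjusted p = 0.0303), from 103 ± 5.86 to 74.4 ± 13.4 normalised reads. KRT10 and KRT32 were not called in either line. KRT17 passed the filter in the SLC6A4 comparison through the empty-vector libraries alone. Its log2 difference there of -0.85 (SE 0.41) is therefore a description, with no test. Leaving out the first or second empty-vector library or the first SLC6A4 library ended the call of KRT15.

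Of 21 other type II keratins, 4 passed the filter in each comparison, and 3 of these, KRT83, KRT85 and KRT86, are hair keratins of the block that holds KRT81. KRT83 rose with DDC by 0.30 (SE 0.08, limma adjusted p = 0.0079), from 3846 ± 244 to 4719 ± 188 normalised reads. It was the only call of the list in that comparison and was lost without the first empty-vector library and under scaling by library size alone. KRT85 went from 20504 ± 499.6 to 24036 ± 3274 normalised reads with DDC, which did not pass (adjusted p = 0.0992). With SLC6A4 none of the 4 was called by limma, edgeR or DESeq2, although 3 had an unadjusted limma p under 0.05. Leaving out single libraries gave 0 to 3 calls with DDC, the most without the first DDC library, and 0 to 2 with SLC6A4, the most without the third SLC6A4 library.

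Of 110 other keratin-associated proteins only 2 passed the filter with DDC and 4 with SLC6A4, and the copies next to KRTAP2-3 and KRTAP2-4 were among them. All of these genes had 30 reads or fewer per library. KRTAP2-1, KRTAP2-2 and KRTAP4-16 passed the filter through the line in which they were high, so their values are descriptions, with no test. KRTAP2-2 was at 5.19, 6.59 and 3.49 normalised reads in the empty-vector libraries, 12.6, 13.3 and 12.04 with DDC and 28.1, 25.6 and 26.1 with SLC6A4. The 3 lines did not overlap, and the log2 differences from the empty vector were 1.19 (SE 0.40) and 2.22 (SE 0.32). For KRTAP2-1 they were 1.04 with DDC and 2.02 (SE 0.34) with SLC6A4. KRTAP4-16, of another cysteine-rich family of the cluster, differed by 1.35 (SE 0.31) with SLC6A4, and KRTAP3-1 was not called. Without any single SLC6A4 library these genes no longer met the filter, which asks for a value of 10 in 3 libraries. KRTAP2-1 holds 32.9% of the 50-base windows of KRTAP2-3 and 44.8% of those of KRTAP2-4, so reads counted for it are uncertain in the same way.

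Desmosomes anchor keratin filaments at cell contacts, and plakins link the filaments to them. Of 14 genes of this list tested with DDC, 2 rose and 5 fell, where 8.94% of all genes tested rose and 8.41% fell. JUP, plakoglobin, fell by 1.29 (SE 0.24, limma adjusted p = 0.000393), DSG2, a desmosomal cadherin, by 0.94 (SE 0.15, limma adjusted p = 9.31e-05), and PLEC, the linker plectin, rose by 0.52 (SE 0.11, limma adjusted p = 0.00151). Of 15 tested with SLC6A4, 4 rose and 3 fell, beside 10.2% and 9.28% of all genes. PKP1, plakophilin, rose by 0.40 (SE 0.08, limma adjusted p = 0.00104), TCHP, a keratin-binding protein, by 0.45 (SE 0.10, limma adjusted p = 0.00472), and PLEC by 0.47 (SE 0.12, limma adjusted p = 0.00743). JUP fell there by 0.61 (SE 0.19, limma adjusted p = 0.029). DESeq2 called 3 of the list with DDC and 5 with SLC6A4, and limma called 4 with DDC without the second empty-vector library and 4 with SLC6A4 without the second SLC6A4 library. Between DDC and SLC6A4, DSG2 was lower in DDC by 0.60 (adjusted p = 0.0143, limma), PNN by 0.47 (adjusted p = 0.0031, limma) and PKP4 by 0.57 (adjusted p = 0.0118, limma), and without the first SLC6A4 library 1 of these 3 calls was left.

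Of the other intermediate filament genes, 2 of 10 rose with DDC, and 3 of 11 rose and 1 fell with SLC6A4, while 17.4% and 19.4% of all genes tested were called in either direction. LMNA, the nuclear lamin A gene, rose in both lines, by 0.44 (SE 0.08, limma adjusted p = 0.000566) and 0.57 (SE 0.07, limma adjusted p = 7.42e-06), and so did LMNB2, by 0.42 and 0.54. VIM, the vimentin gene of mesenchymal cells, rose with SLC6A4 by 0.36 (SE 0.06, limma adjusted p = 0.000509), from 2130 ± 56.1 to 2750 ± 262 normalised reads. NEFL, the light neurofilament chain, fell with SLC6A4 by 0.67 (SE 0.10, limma adjusted p = 0.000105) and was higher in DDC than in SLC6A4 by 0.79 (limma adjusted p = 1.12e-05). Of 10 regulators of hair keratins, HOXC13 and VDR were measurable in both lines and GATA3 with SLC6A4, and none was called by limma, edgeR or DESeq2, nor reached an unadjusted limma p under 0.05.

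The chromatin marks were counted by the authors in listed H3K4me3Q5ser regions, of which 11 lay in or within 10000 bp of the keratin clusters. The chromosome 12 cluster runs from 52168996 to 52952906 with 27 genes, and that of chromosome 17 from 40654665 to 41624842 with 62 genes. Replicate ChIP libraries of each group differed by little more than counting noise, with a chi-square per region of 0.992 to 1.14 for every pair of libraries against 2.70 to 13.2 for RNA pairs. The p-values of the marks thus come close to counting error alone. With DDC 61.2% of regions were called for H3K4me3Q5ser and 17.6% for H3K4me3, with SLC6A4 82.5% and 61.5%, and between DDC and SLC6A4 76.9% and 60.2%. Values are given in CPM, the read pairs of a region scaled to the total of the listed regions, which show how signal was divided among these regions and not a total amount.

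Regions lay over or beside 6 members. A region was found within 1000 bp of the start of 5 of them, at KRT80 (chr12:52189828-52192144), KRT7 (chr12:52232513-52236111), the shared start of KRT8 and KRT18 (chr12:52945991-52954104) and KRT19 (chr17:41521950-41530528, which also covers the start of KRT15). Each start is the outermost annotated start of the gene, and the shared start here means that this region holds those of KRT8 and KRT18. A second KRT8 region, called inner for its place in the gene, lay 43339 bp from the outermost KRT8 start (chr12:52899926-52906615). It also lay within 1000 bp of annotated KRT8 starts and overlapped 2 listed H3K4me3 peaks. Which KRT8 start these cells use was not tested. The KRT81 region (chr12:52284176-52288888) covered the end of the gene, 2646 bp from its start. No listed region lay within 1000 bp of KRT34, KRTAP2-3, KRTAP2-4 or KRT5. The nearest were 139.644 kb, 21.468 kb, 15.703 kb and 214.738 kb away. The members with the largest RNA ratios therefore had no mark value of their own here.

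At the KRT7 start H3K4me3Q5ser was at 19.9, 21.2 and 21.7 CPM in the empty-vector libraries, 11.8, 12.5 and 12.6 with DDC and 25.3, 25.1 and 25.2 with SLC6A4. The 3 lines did not overlap, with DDC lowest. The mark fell with DDC by 0.77 (SE 0.07, edgeR adjusted p = 1.95e-19), rose with SLC6A4 by 0.32 (SE 0.05, edgeR adjusted p = 5.83e-09) and was lower in DDC than in SLC6A4 by 1.09. Only 3.59% of regions had a lower log2 difference with DDC. H3K4me3 at the same region was at 28.3, 23.9 and 22.2 in the empty-vector libraries, 19.5, 16.8 and 20.8 with DDC and 27.7, 29.2 and 30.3 with SLC6A4. It fell with DDC by 0.36 (SE 0.13, edgeR adjusted p = 0.027), a call lost with DESeq2 (adjusted p = 0.11), without the first empty-vector library and without the second DDC library. With SLC6A4 its difference of 0.21 did not pass (adjusted p = 0.0766). Input there was 23.4 ± 2.79 in the empty-vector line and 23.6 ± 4.2 with DDC (SD, n = 3).

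At the KRT80 start H3K4me3Q5ser was at 10.5, 11.3 and 9.70 CPM in the empty-vector libraries, 5.22, 5.53 and 6.14 with DDC and 8.87, 7.76 and 10.0 with SLC6A4. It fell with DDC by 0.90 (SE 0.10, edgeR adjusted p = 1.22e-13), and 2.29% of regions had a lower difference. With SLC6A4 it fell by 0.18 (edgeR adjusted p = 0.0344), a call lost with DESeq2 (adjusted p = 0.129) and when any of 4 single libraries, the first or second of either group, was left out. H3K4me3 at KRT80 was at 20.99, 17.7 and 18.9 in the empty-vector libraries and at 15.5, 15.4 and 15.5 with DDC, and the difference of -0.30 did not pass (edgeR adjusted p = 0.133). Input was 16.8 ± 1.69 and 15.2 ± 2.69 (SD, n = 3). KRT7 and KRT80, at neighbouring places in the chromosome 12 cluster, were thus the members with both a lower RNA level and a lower H3K4me3Q5ser value with DDC.

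**Figure D3:**
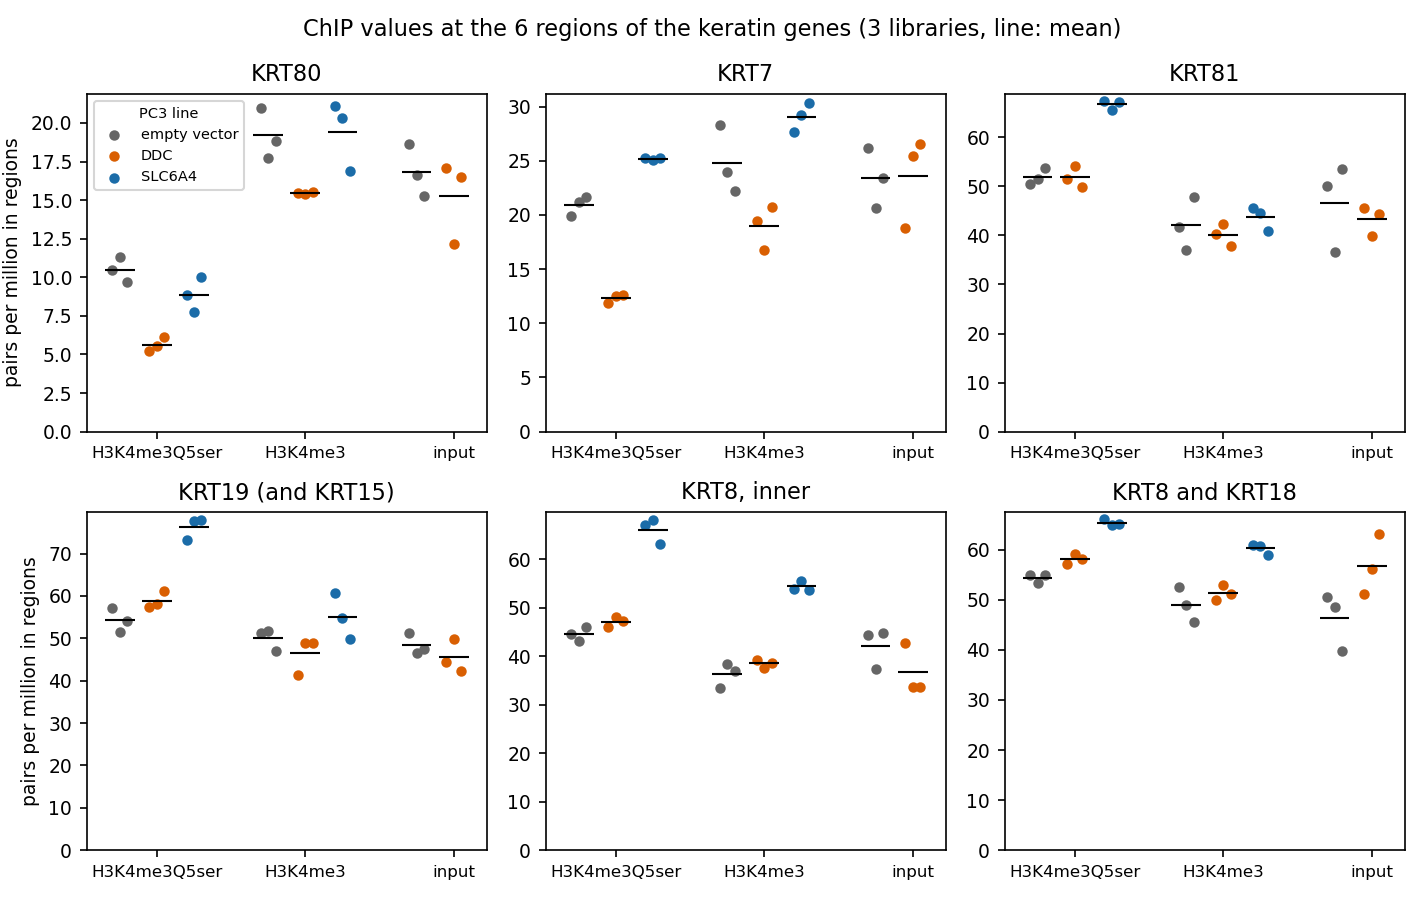
CPM (read pairs scaled to the total of the listed regions) of H3K4me3Q5ser, H3K4me3 and input in each library at the 6 regions over members, by line (input for the empty-vector and DDC lines). At KRT7 and KRT80 the DDC libraries of H3K4me3Q5ser lie below the empty-vector libraries, and at KRT81, KRT8, KRT8 with KRT18 and KRT19 its SLC6A4 libraries lie above both other lines.

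At KRT19 the mark and the RNA did not go the same way. H3K4me3Q5ser was at 57.2, 51.4 and 54.1 CPM in the empty-vector libraries, 57.3, 58.2 and 61.1 with DDC and 73.1, 77.6 and 78.0 with SLC6A4. It rose with DDC by 0.12 (SE 0.04, edgeR adjusted p = 0.00392, lost without the second empty-vector library) and with SLC6A4 by 0.55 (SE 0.03, edgeR adjusted p = 3.74e-32), while the RNA difference was -0.72 and -0.24. H3K4me3 was not called in either line against the empty vector (adjusted p = 0.5 and 0.26, edgeR).

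At the shared start of KRT8 and KRT18, H3K4me3Q5ser was at 55.0, 53.3 and 55.0 CPM in the empty-vector libraries, 57.2, 59.2 and 58.2 with DDC and 66.2, 64.9 and 65.2 with SLC6A4. The mark rose with DDC by 0.10 (SE 0.04, edgeR adjusted p = 0.0115, lost without the second empty-vector or the second DDC library) and with SLC6A4 by 0.32 (SE 0.03, edgeR adjusted p = 3.7e-17). H3K4me3 rose there with SLC6A4 by 0.27 (SE 0.08, edgeR adjusted p = 0.000922). Input was higher in DDC at this region, at 51.2, 56.1 and 63.1 against 50.7, 48.6 and 39.8, and its part in the DDC difference was not tested. The RNA difference from the empty vector was -0.58 for KRT8 and -0.46 for KRT18 with DDC, and 0.14 and -0.69 with SLC6A4. With DDC for both genes, and with SLC6A4 for KRT18, RNA and H3K4me3Q5ser thus did not go the same way.

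In the inner KRT8 region H3K4me3Q5ser was at 44.6, 43.1 and 46.1 in the empty-vector libraries, 45.9, 48.0 and 47.1 with DDC and 66.9, 68.0 and 63.2 with SLC6A4. The SLC6A4 libraries stood apart from both other lines. The rise with SLC6A4 was 0.62 (SE 0.03, edgeR adjusted p = 2.57e-34), and H3K4me3 rose by 0.54 (SE 0.08, edgeR adjusted p = 7.94e-10). The DDC difference of 0.08 in H3K4me3Q5ser did not pass (adjusted p = 0.0742, edgeR).

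Over the end of KRT81 H3K4me3Q5ser was at 50.5, 51.6 and 53.8 in the empty-vector libraries, 51.5, 54.2 and 50.0 with DDC and 67.4, 65.5 and 67.2 with SLC6A4. It rose with SLC6A4 by 0.42 (SE 0.03, edgeR adjusted p = 4.15e-23), and its DDC difference of 0.01 did not pass (adjusted p = 0.912). H3K4me3 differed by 0.01 with SLC6A4 (SE 0.09, edgeR adjusted p = 0.913).

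Of the 6 regions over members, 5 rose and 1 fell in H3K4me3Q5ser with SLC6A4, against 41% and 41.5% of all regions. With DDC 2 rose and 2 fell, against 29.7% and 31.5%. All 6 were lower in DDC than in SLC6A4, against 38.9% of all regions, with 38% higher. For H3K4me3, 1 of 6 fell with DDC and none rose, against 9.39% and 8.24% of all regions. With SLC6A4 2 of 6 rose in H3K4me3 and none fell, against 31.9% and 29.6%, and 4 of 6 were lower in DDC than in SLC6A4 and none higher, against 30.9% and 29.3%. The median log2 difference of the 6 in H3K4me3Q5ser was 0.04 with DDC and 0.37 with SLC6A4, against 0.00 and -0.01 over all regions.

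An interaction of mark and line asked whether H3K4me3Q5ser moved more than H3K4me3 at the same region. With DDC it was called at KRT80 (-0.60, SE 0.18, edgeR adjusted p = 0.00952) and KRT7 (-0.39, SE 0.14, edgeR adjusted p = 0.0436), beside 15% of all regions (5.15% higher, 9.88% lower). The KRT7 call was lost with DESeq2 (adjusted p = 0.0683) and when any of 8 single libraries was left out. With SLC6A4 it was called at KRT81 (0.40, SE 0.09, edgeR adjusted p = 0.000136) and KRT19 (0.45, SE 0.08, edgeR adjusted p = 3.58e-06), beside 29.2% (14.5% higher, 14.7% lower). At both KRT8 regions the interaction did not pass in either line. The regions at KRT80, KRT7 and KRT19 overlapped no listed H3K4me3 peak. The ratio of H3K4me3 to input, each as a share of the listed regions, was 1.14, 1.06 and 1.03 there in the empty-vector line. The median of all regions was 0.97. Whether H3K4me3 stood above background at these regions was not tested.

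**Figure D4:**
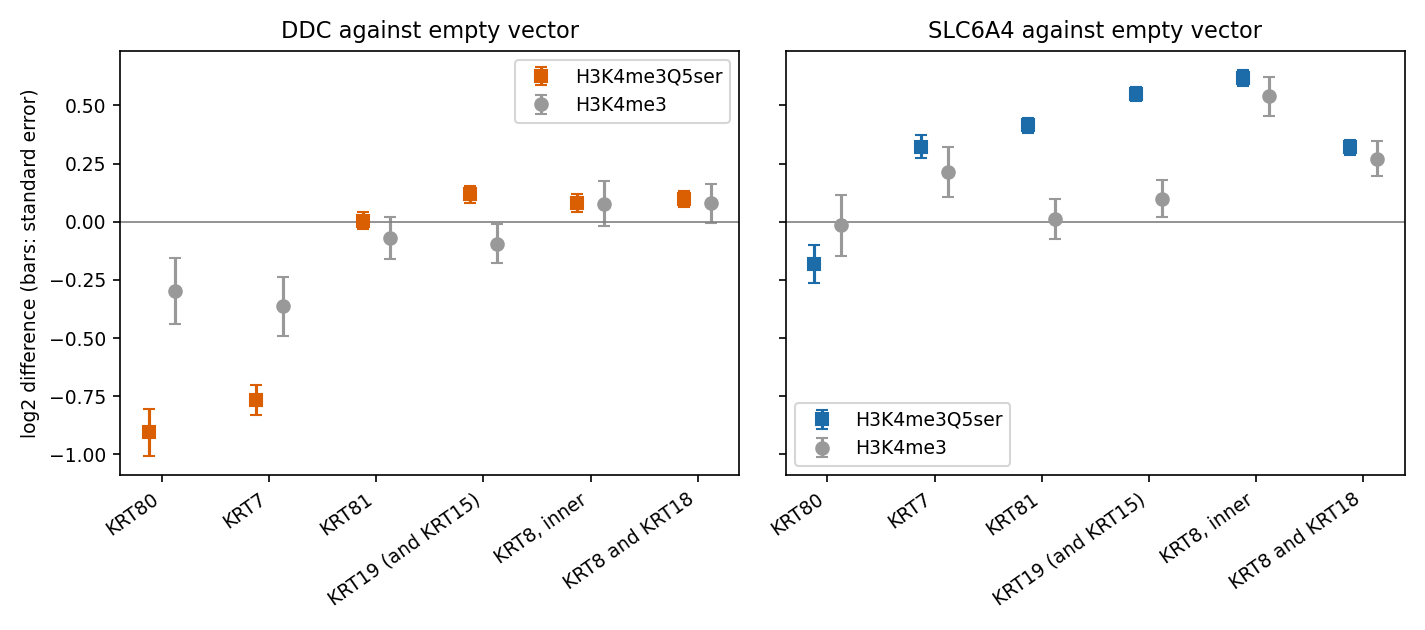
Log2 difference of H3K4me3Q5ser and H3K4me3 at the 6 regions over members for DDC (left) and SLC6A4 (right) against the empty vector, with bars of 1 standard error from edgeR. H3K4me3Q5ser at KRT80 and KRT7 lies at -0.90 and -0.77 with DDC, and at KRT81 and KRT19 it lies above H3K4me3 with SLC6A4.

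In the empty-vector and DDC lines H3K4me3Q5ser was below input at KRT80 and KRT7 and above it at the other 4 regions over members. As a share of signal in the listed regions, the ratio of H3K4me3Q5ser to input was 0.62 at KRT80 and 0.89 at KRT7 in the empty-vector line, 0.37 and 0.52 with DDC, and between 1.02 and 1.29 at the other 4 regions in those lines. The median of all regions was 0.81 and 0.76. The table holds listed regions only, so enrichment over the rest of the genome cannot be read from it. By the authors' peak lists, H3K4me3 ChIP peaks lay within 1000 bp of the starts of KRT8 and KRT18 only, and the H3K4me3Q5ser regions at KRT80, KRT7 and KRT19 overlapped no H3K4me3 peak.

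Among the other cluster regions, the one at chr17:41101787-41104693, over the starts of KRTAP4-16 and KRTAP4-9, fell in H3K4me3Q5ser with DDC by 0.63 (SE 0.05, edgeR adjusted p = 9.69e-20) and with SLC6A4 by 0.22 (SE 0.05, edgeR adjusted p = 7.74e-06). H3K4me3 fell there too, by 0.40 (edgeR adjusted p = 0.00041) and 0.61 (edgeR adjusted p = 3.18e-10). The region over the start of KRT10 (chr17:40813499-40822037) fell in H3K4me3Q5ser with SLC6A4 by 0.16 (SE 0.03, edgeR adjusted p = 2.64e-07) and was not called with DDC.

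CUT&Tag of H3K4me3 had no replicates, so only values are given. Peaks with values lay at KRT8 and KRT18 among the members. At the peak over the shared start (chr12:52949167-52950616) the level was 36.1 CPM in control cells, 41.8 CPM with SLC6A4 and 41.0 CPM with SLC6A4 and the hairpin against TGM2. The inner KRT8 peak at chr12:52902944-52903814 was at 18.3, 19.3 and 15.1 CPM, and the peak at chr12:52904068-52904959 was at 22.5, 21.3 and 21.4 CPM. These levels lay close together, and with 1 library each no difference can be told from library variation. The table covers only peaks that were not in the authors' up list, and no member had an up-listed peak within 5000 bp of its start.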

How the data were processed

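RNA values are DESeq2-normalised signal per gene, deposited by the authors for each pair of groups, aligned with HISAT2 2.1.0 per the submitters' processing notes. In all libraries 100% of values were whole multiples of the value of 1 read (tolerance 0.001), so reads were recovered and put on shared size factors to give levels in all lines. Differences from the empty vector used limma 3.58.1 (R 4.3.3, empirical Bayes with trend) on log2(value + 1) of each deposited table, for genes at 10 or more in at least 3 libraries. DDC against SLC6A4 used the recovered reads on 1 scale. Fold changes on this scale understate low genes. ChIP values are estimated counts of read pairs per region, made by featureCounts 2.0.3 per the file headers, and 9.78% of cells were not whole, so they were rounded. The command in those headers asks for strand-specific counting although the regions have no strand, and the effect on the counts was not checked. They were tested with edgeR 4.0.16 (quasi-likelihood, TMM scaling, filterByExpr). CUT&Tag values are CPM per peak as deposited by the authors, with no library totals. The peak lists were deposited with positions only and MACS2 is the caller named in the submitters' processing notes.

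Tests were two-sided, with p-values adjusted by Benjamini-Hochberg over all features and a threshold of 0.05. Fits were tested on simulated data. DESeq2 1.42.0, other scalings, filters, pseudocounts, a replicate block and leaving out each library were the alternatives. Gene positions and exon lengths came from GENCODE on GRCh38 (62625 of 62703 identifiers matched), and the build of the files is GRCh38 per the submitters' processing notes. CPM of ChIP divides by pairs in the listed regions.

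The members and gene lists were chosen with earlier results of these data known. Named were all members, other keratins and keratin-associated genes past the filter (at most 15), up to 3 called genes of each other list per comparison, the 5 genes most correlated with KRT34 and with KRT7 (mean of at least 5 CPM), regions at members and up to 6 further cluster regions. SLC6A4 input libraries and 8 CUT&Tag samples were not analysed here.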

Additional observations from a re-analysis of the deposited data

Results flagged for a closer look

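Values that differed between the DDC and SLC6A4 lines by a direct test are listed here as log2 differences, DDC minus SLC6A4, past a Benjamini-Hochberg adjusted p of 0.05. For H3K4me3Q5ser (edgeR) they were -0.72 at KRT80, -1.09 at KRT7, -0.41 at KRT81, -0.54 at the inner KRT8 region, -0.22 at the shared start of KRT8 and KRT18 and -0.43 at KRT19. Outside the members they were 0.15 at the region over SMARCE1, 0.16 at the region over KRT10, -0.91 at a region of 241 bp at chr17:41081582-41081822 and -0.41 at the region over KRTAP4-16 and KRTAP4-9. The value of -0.91 rests on 0.36 to 1.39 CPM and was -0.59 and not called without the first DDC library.

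For H3K4me3 (edgeR) the differences were -0.58 at KRT7, -0.46 at the inner KRT8 region, -0.19 at the shared start of KRT8 and KRT18, -0.19 at KRT19, 0.35 at the region over SMARCE1 and 0.26 at the region over KRT10. The value at the shared start of KRT8 and KRT18 and that at KRT19 were not called with DESeq2 (adjusted p = 0.0921 and 0.108).

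In RNA (limma) the genes outside the members that were lower in DDC were EPCAM at -1.49, DSG2 at -0.60, PKP4 at -0.57 and PNN at -0.47. KRTAP2-2 differed by -1.02, given as a description like its other values, and DESeq2 called no gene of its list in this comparison. Those higher in DDC were PECAM1 at 0.85, NEFL at 0.79 and CD68 at 0.38. CDH1 differed by -2.38, a description only, since it was under the filter's 10 normalised reads in every DDC library.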

How the results depend on the processing

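Under other settings 183 of 189 member RNA differences moved by less than the spread between replicates. All 189 leave-one-out differences did so too. Leaving out 1 of 3 libraries cannot move a mean further than that, so this is no test of stability. The difference of KRT80 with SLC6A4, for example, ran from -0.01 to 0.45 in those fits. No member difference past the threshold reversed. With DESeq2 the calls were 1468 genes in place of 2281 (DDC), 1669 in place of 2579 (SLC6A4), 1633 H3K4me3 regions in place of 3344 (DDC), and in the keratin clusters 1 region in place of 2 for H3K4me3 with DDC and 1 in place of 2 for the DDC interaction. Without single libraries, genes called ranged from 1543 to 2088 (DDC), 1929 to 2359 (SLC6A4) and 1243 to 1791 (DDC against SLC6A4). Cluster regions called ranged from 3 to 6 (H3K4me3Q5ser with DDC, 5 in the full data), 1 to 2 (H3K4me3 with DDC) and 1 to 3 (DDC interaction). At an overlap of at least 50% of a region, 1 of the 11 regions shared a H3K4me3 peak, against 6 at 1 bp. The cause of these moves was not tested, apart from fewer samples in leave-one-out fits. Of the ChIP differences at named regions, 317 kept their side of the threshold under other settings, 9 lost their call and 2 gained it. Under leave-one-out fits 884 kept it, 27 lost and 7 gained it. Same-numbered libraries showed no shared deviation (correlations of -0.126 to 0.026), so the numbers do not pair them. A replicate block gave 2369, 2497 and 1710 genes in the RNA comparisons against 2281, 2579 and 1784 without it, and moved no count of genes or regions over all features by over 1.5 times. Low keratin genes rest on few reads, and marks at small regions on few read pairs.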
